A study of Drosophila melanogaster with 10 samples.

Results

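Receptors for neuropeptides and biogenic amines were examined in the adult Malpighian tubule of Drosophila melanogaster, the epithelium that serves the fly as its kidney. The list held 49 receptor genes, and a probe set was taken for a gene where the array annotation gave that gene, by symbol or synonym, and no other. This left 33 receptors measured, among 10844 genes named by the annotation and 13966 probe sets tested. For the 12 receptors with 2 such probe sets, the one with the higher mean signal over the 10 arrays stands for the gene.

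The study hybridised complementary RNA made from tubule and whole fly RNA to an Affymetrix oligonucleotide array. Its aim was to find which genes the tubule expresses and which of them are enriched there. There were 5 tubule arrays and 5 whole fly arrays, numbered 2 to 6, and arrays of the same number came from 1 culture of Oregon R adults, 7 days old and of both sexes. Tubules were severed at the lower ureter and pooled in large batches, and flies were homogenised whole, so that the whole fly samples also contain tubules. The values are MAS 5.0 signals, a linear measure of hybridisation that the study scaled to a common level on every array. The deposited signals do not include detection calls, and a mean of 50 over the 5 tubule arrays was used as a descriptive limit in their place. Signals of different probe sets depend on their probes. They were not compared with each other, apart from the shared limit of 50, the choice of the brighter probe set and summed signals.

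Nearly all receptors of these kinds are G-protein-coupled receptors. They pass the signal of a circulating or locally released peptide or amine to cyclic AMP or to calcium inside the cell. In the tubule, the calcitonin-like peptide DH31 and the corticotropin-releasing factor-like peptide DH44 act on the principal cells, which secrete cations, whereas leucokinin acts on the stellate cells, which carry chloride and water. Tyramine, made in the principal cells, also acts on the stellate cells.

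Of the 33 receptors, 10 reached a mean signal of 50 in the tubule, against 35.8% of all probe sets. They were Dh31-R, Dh44-R2, Lkr, TkR99D, CCHa1-R, Octbeta3R, rk, CCHa2-R, SPR and Dop2R. Just inside the limit was Dop2R at 53.4, and just outside it was TyrR at 39.5. In 5 of the 10, namely Dh31-R, Dh44-R2, Lkr, CCHa1-R and TkR99D, each of the 5 tubule arrays reached 50.

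Within the 5 matched pairs, 9 receptors were higher in tubule, 3 were lower and 21 did not pass the test (limma on log2 signals with the pair as a block, adjusted p under 0.05 over all 13966 probe sets). The share higher was 27.3%, against 16.8% of all probe sets, and the share lower was 9.09%, against 36.3%. The receptor counts take the brighter probe set of a gene, while the background counts every probe set. With the second probe set, where a receptor had one, 6 of the 33 were higher and 2 lower. The median log2 fold change of the 33 receptors was 0.09, against -0.32 over all probe sets. All 5 tubule arrays lay above all 5 whole fly arrays for 8 receptors (14.1% of all probe sets) and below them for 2 (29.6%). In pooled tissue, fewer cells of a type and less RNA per cell cannot be told apart, and this holds for each level given here.

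The counts were also taken by brightness. Of the 10 receptors with a mean of at least 50 in tubule or in whole fly, 7 were higher in tubule and 1 was lower. Of the 23 that were under 50 in both, 2 were higher and 2 were lower. The 10 are the receptors that reached 50 in tubule, so picking them favours a higher tubule signal. The split between the 2 sets is therefore partly built in and is a description only. When only the 6125 probe sets with a mean of at least 50 over the 10 arrays were tested, 7 receptors were left, of which 5 were higher and 1 lower, beside a background of 30.4% higher and 43.1% lower. The split also moved with the scaling. Quantile normalization gave 16 receptors higher and 1 lower (background 29.7% and 24.7%), and holding the ribosomal protein gene RpL32 constant gave 7 and 7 (background 10.4% and 46.2%). Under these scalings the median log2 fold change of all probe sets was 0.18 and -0.66.

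**Figure D1:**
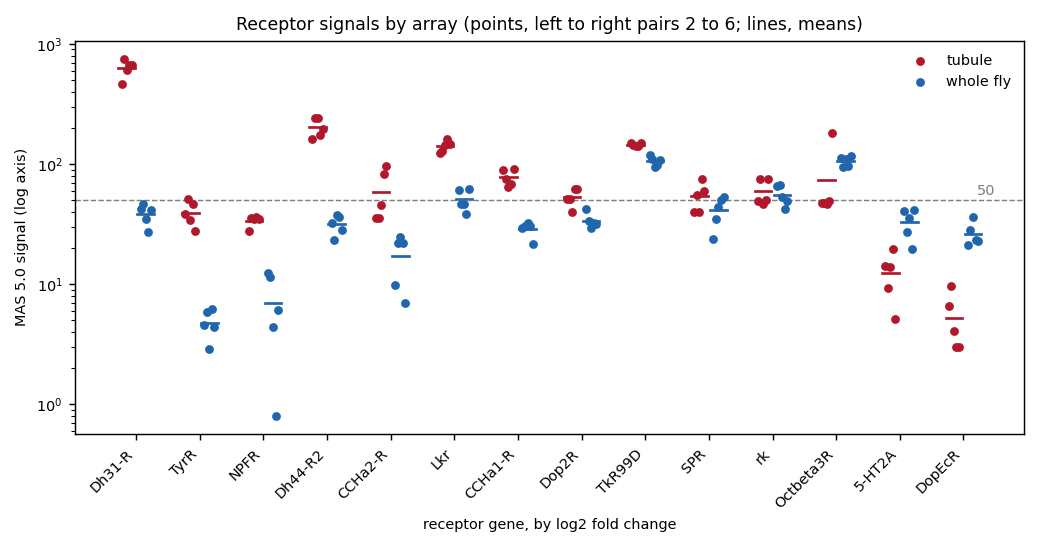
MAS 5.0 signal on a log axis for the 14 receptors whose signals are given array by array, ordered by log2 fold change. Points are single arrays, red for tubule and blue for whole fly with pairs 2 to 6 from left to right, horizontal bars are group means, and the dashed line marks 50. Dh31-R lies at 466 to 756 in tubule against 27.2 to 47.0 in whole fly, and tubule array 6 of Octbeta3R stands at 181, apart from the other 4 at 46.6 to 49.4.

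The receptors of the renal peptides were the group with the largest median, a log2 fold change of 2.09 over its 4 members, all of which were measured. Of these, 3 were higher in tubule and reached 50 there, and none was lower (all probe sets 16.8% higher and 36.3% lower). The enrichment of some of these receptors is also described by the study from the same arrays. It also lists a bombesin, a neuropeptide Y-like and an octopamine-like receptor, whose signals and enrichments match those of CCHa2-R, NPFR and TyrR here. Its description of these receptors is no independent evidence.

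Dh31-R, the receptor of DH31, gave signals of 466.3, 755.6, 610.5, 662.3 and 672.1 in tubule arrays 2 to 6. In whole fly arrays 2 to 6 it gave 42.6, 47.0, 34.7, 27.2 and 41.4. The lowest tubule array was far above the highest whole fly array. The mean signal was 633 ± 107 in tubule and 38.6 ± 7.74 in whole fly (SD, n = 5 each). Its enrichment, the mean of the 5 within-pair ratios, was 17.0 ± 4.81 (SD, n = 5), with a log2 fold change of 4.04 (95% interval 3.66 to 4.43, limma adjusted p = 6.6e-07). This was the largest log2 fold change of the 33 receptors. A second probe set of Dh31-R, dimmer in whole fly, read 173 to 231 in tubule and 3.3 to 6.1 in whole fly, a log2 fold change of 5.59 (limma adjusted p = 9.8e-07) whose size is uncertain at whole fly signals this low.

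Dh44-R2, a receptor of DH44, gave 162.5, 241.4, 242.5, 174.4 and 195.7 in the tubule arrays and 32.2, 23.4, 38.0, 36.2 and 28.2 in the whole fly arrays. The 2 groups were well apart. Enrichment was 6.70 ± 2.21 (SD, n = 5) and the log2 fold change 2.69 (95% interval 2.25 to 3.12, limma adjusted p = 1.3e-05). Its second probe set gave 2.92 (limma adjusted p = 7.5e-05), with 35.9 to 98.8 in tubule and 6.9 to 18.7 in whole fly.

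Lkr, the leucokinin receptor, gave 124.1, 129.2, 145.2, 160.7 and 148.3 in tubule and 61.2, 46.8, 46.6, 38.5 and 62.1 in whole fly. The groups did not overlap, with 124.1 the lowest tubule and 62.1 the highest whole fly signal. Enrichment was 2.89 ± 0.823 (SD, n = 5) and the log2 fold change 1.49 (95% interval 1.08 to 1.90, limma adjusted p = 2.1e-04).

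Dh44-R1 is the other DH44 receptor. Its signals were 1.7 to 7.6 in tubule and 2.1 to 6.5 in whole fly, near the bottom of the scale in both, and the groups overlapped. The log2 fold change was 0.08 (95% interval -0.91 to 1.07, limma adjusted p = 0.90). Within pairs, the log2 ratio of Dh44-R1 was below that of Dh44-R2 in 5 of 5 pairs. The exact sign-flip permutation test of this difference gave p = 0.0625, the smallest that 5 pairs allow, and p = 0.22 after adjustment over the 7 pairs of related receptors compared, so it did not pass, and at such signals the ratio of Dh44-R1 carries little information.

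CapaR, the receptor of the CAPA peptides on the principal cells, is not among the 33, because the annotation gives its probe set no gene. The additional file of the study links a probe set to it, and that file lists probe sets for their enrichment on these arrays. That probe set gave 252.9, 296.5, 286.0, 324.3 and 397.6 in tubule and 29.3, 29.8, 30.2, 29.7 and 27.3 in whole fly. The groups did not overlap, and the log2 fold change was 3.40 (limma adjusted p = 9.8e-07). AstA-R2, an allatostatin A receptor that is a member of the list, was linked to a probe set in the same way. It gave 270.5, 256.0, 171.9, 207.6 and 225.7 in tubule and 117.7, 110.1, 124.5, 105.9 and 98.8 in whole fly, again without overlap, a log2 fold change of 1.01 (limma adjusted p = 5.3e-04). Since the file that names them was made by selection on this difference, these values are a description and do not enter the counts.

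**Figure D2:**
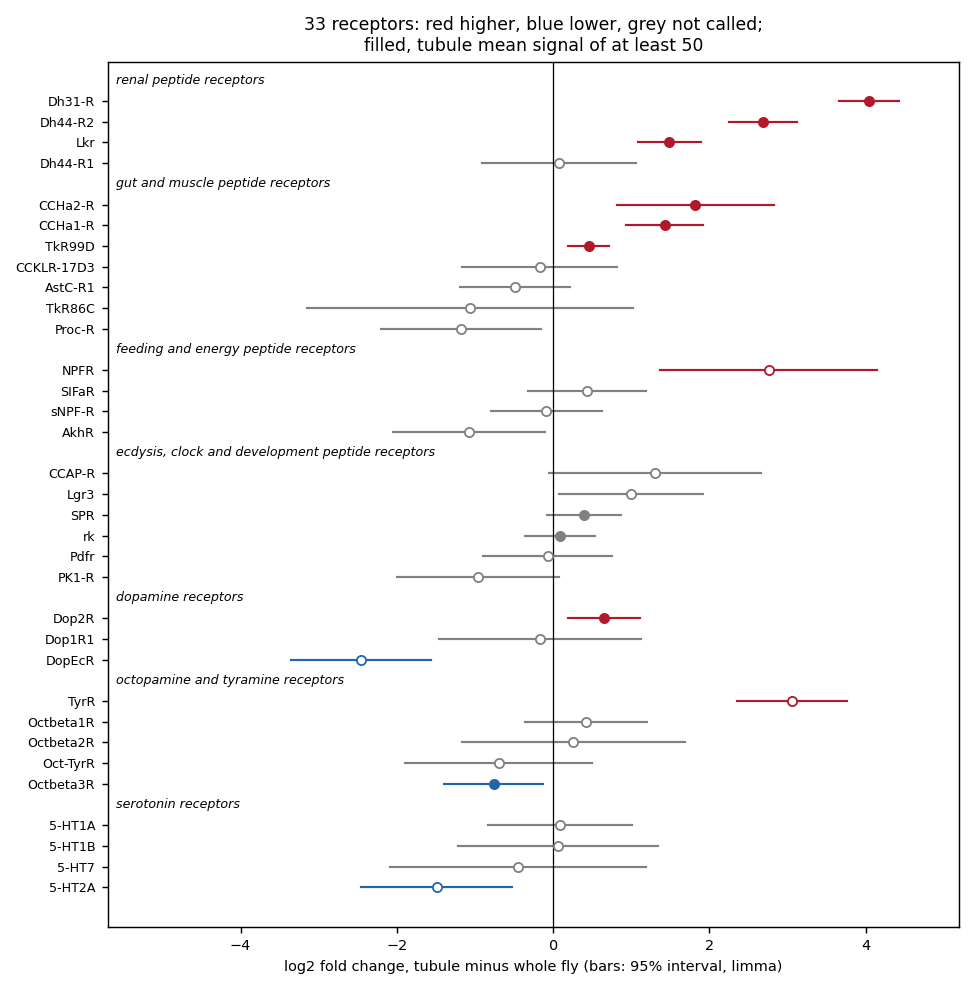
Log2 fold change of the 33 receptors, tubule minus whole fly, by role group. Points are limma estimates from 5 pairs with 95% intervals, red for higher, blue for lower and grey for receptors that did not pass the test, and filled points have a tubule mean of at least 50. Of the 10 filled points, 7 are red, 1 is blue and 2 are grey, a split partly built in because points were filled by their tubule signal.

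Receptors of gut and muscle peptides came next, with 7 of 14 measured. In this group 3 receptors were higher in tubule and none was lower (all probe sets 16.8% and 36.3%), and the median log2 fold change was -0.17. CCHa1-R and CCHa2-R are receptors of the CCHamides, peptides of gut endocrine cells, fat body and brain, and TkR99D is a receptor of the tachykinins, which gut endocrine cells and neurons release.

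CCHa1-R gave 89.7, 75.0, 64.0, 67.8 and 91.4 in tubule and 29.3, 30.5, 32.4, 30.5 and 21.6 in whole fly. The lowest tubule array, 64.0, lay well above the highest whole fly array, 32.4. Enrichment was 2.79 ± 0.901 (SD, n = 5) and the log2 fold change 1.43 (95% interval 0.93 to 1.92, limma adjusted p = 7.0e-04). A second, dimmer probe set of CCHa1-R, with a tubule mean of 13.6, gave 0.49 (95% interval -0.44 to 1.42, limma adjusted p = 0.34).

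CCHa2-R gave 35.5, 35.9, 45.7, 82.7 and 95.6 in tubule and 9.9, 22.1, 24.9, 22.2 and 7.0 in whole fly. The groups did not overlap, but the tubule arrays spread widely, and enrichment was 4.89 ± 5.00 (SD, n = 5). The log2 fold change was 1.82 (95% interval 0.81 to 2.82, limma adjusted p = 0.0081). Without array 6 its tubule mean was 49.95, just under the limit. Its second probe set, with a tubule mean of 6.22, gave 0.49 (95% interval -0.35 to 1.33, limma adjusted p = 0.29). The log2 ratios of CCHa1-R and CCHa2-R differed within pairs by -0.39 ± 0.875 (SD, n = 5, exact sign-flip permutation p = 0.38).

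TkR99D was bright in both tissues, with 150.2, 143.8, 141.2, 141.9 and 149.1 in tubule and 118.9, 110.8, 93.8, 98.9 and 109.1 in whole fly. The difference was small and steady, an enrichment of 1.37 ± 0.0988 (SD, n = 5) and a log2 fold change of 0.45 (95% interval 0.19 to 0.72, limma adjusted p = 0.010). With RpL32 held constant TkR99D was 0.12 (limma adjusted p = 0.52) and no longer passed.

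The other 4 gut and muscle receptors measured were under 50 in both groups. TkR86C, the second tachykinin-type receptor, gave 0.2 to 11.7 in tubule and 3.5 to 9.8 in whole fly. Proc-R, the proctolin receptor, gave 2.4 to 13.8 in tubule and 10.7 to 17.0 in whole fly, lower in tubule in 5 of 5 pairs, with a log2 fold change of -1.18 (95% interval -2.21 to -0.15, limma adjusted p = 0.054). AstC-R1, an allatostatin C receptor, and CCKLR-17D3, a receptor of the sulfakinins, had log2 fold changes of -0.49 and -0.17, and their groups overlapped.

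Beside these receptors, the midgut digestive enzyme genes varied greatly among the tubule arrays. The summed signal of 15 midgut markers was lowest in tubule array 4 at 1175 and highest in array 3 at 19305, against 35346 to 46150 in whole fly. Of the 15, 12 were lower in tubule, beside 36.3% of all probe sets. The part of gut tissue in the receptor levels was not tested.

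Feeding and energy peptides had 4 of 5 receptors measured, none of which reached 50 in the tubule. One of them was higher in tubule and none was lower (all probe sets 16.8% and 36.3%). NPFR, the receptor of neuropeptide F, gave 27.6, 35.6, 34.7, 36.1 and 35.1 in tubule and 12.4, 11.4, 4.4, 0.8 and 6.1 in whole fly. The tubule arrays were close to each other and all above the whole fly arrays, which ran down to 0.8. The ratios within pairs therefore ranged from 2.23 to 45.1, an enrichment of 12.8 ± 18.2 (SD, n = 5), and the log2 fold change of 2.76 had an interval of 1.37 to 4.15 (limma adjusted p = 0.0051). The highest ratio was that of pair 5, where the whole fly signal was 0.8. Without pair 5 the log2 fold change was 2.08 (adjusted p = 0.0056), and with 16 added to each signal it was 1.14 (5.1e-04), so its size is uncertain. AkhR, the receptor of adipokinetic hormone, had a log2 fold change of -1.07 (95% interval -2.04 to -0.10, limma adjusted p = 0.062), sNPF-R of -0.09 and SIFaR of 0.43, and none of the 3 passed the test.

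Of the 11 receptors of ecdysis, clock and developmental peptides 6 were measured and none passed the test, although 2 reached 50 in the tubule. Of all probe sets 16.8% were higher and 36.3% lower. The null result depended on the scaling. After quantile normalization CCAP-R, rk, Lgr3 and SPR passed as higher, beside 29.7% of all probe sets. There rk was 0.67 (limma adjusted p = 0.025) and SPR 1.05 (0.0031). rk, the receptor of bursicon, gave 49.6, 75.3, 47.0, 50.4 and 75.3 in tubule and 65.8, 66.5, 53.4, 42.3 and 49.6 in whole fly. These groups overlapped in large part, and the log2 fold change was 0.09 (95% interval -0.36 to 0.54, limma adjusted p = 0.73).

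SPR, a receptor of sex peptide and of the myoinhibitory peptides, gave 39.9, 55.1, 40.0, 75.0 and 59.6 in tubule and 23.7, 35.2, 44.3, 50.3 and 53.6 in whole fly. It was higher in tubule in 4 of 5 pairs, the groups overlapped, and the log2 fold change was 0.40 (95% interval -0.07 to 0.87, limma adjusted p = 0.14). Without array 5 its tubule mean was 48.7. Its second probe set went the other way, at -0.78 (95% interval -1.84 to 0.28), as did those of CCAP-R at -0.02 and Lgr3 at -0.35. Of the remaining members, CCAP-R had a log2 fold change of 1.30 (limma adjusted p = 0.097), Lgr3, the receptor of the relaxin-like peptide Ilp8, of 1.0 (0.066), Pdfr, the receptor of the clock neuron peptide PDF, of -0.07 (0.88) and PK1-R, a receptor of capa gene products, of -0.96 (0.11).

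Among the amine receptors, 12 were measured, 3 of dopamine, 5 of octopamine and tyramine and 4 of serotonin. They gave 2 receptors higher in tubule and 3 lower, beside 16.8% and 36.3% of all probe sets. The share higher was close to that background. The tyramine receptor TyrR gave 38.6, 50.8, 34.3, 46.3 and 27.6 in tubule and 4.6, 5.9, 2.9, 6.2 and 4.4 in whole fly. The groups were far apart although the tubule mean, 39.5, was under the limit. Enrichment was 8.51 ± 2.07 (SD, n = 5) and the log2 fold change 3.06 (95% interval 2.36 to 3.76, limma adjusted p = 8.0e-05). The size of this change is uncertain, since the whole fly signals are near the floor of the scale, and with 16 added to each signal it was 1.4 (adjusted p = 3.9e-05).

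Oct-TyrR, which binds octopamine and tyramine, was at the floor of the scale, 0.7 to 6.9 in tubule and 0.6 to 5.2 in whole fly, a log2 fold change of -0.70 (95% interval -1.89 to 0.50). The log2 ratio of TyrR was above that of Oct-TyrR in 5 of 5 pairs, with an exact sign-flip permutation p of 0.0625, again the smallest possible, and of 0.22 after adjustment over the 7 pairs, so it did not pass, and no size is given for a difference taken against such dim signals. The other 5 pairs of related receptors, which include CCHa1-R with CCHa2-R and the serotonin receptors 5-HT1A with 5-HT1B, had exact permutation p-values of 0.25 to 0.94.

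Octbeta3R, a beta-adrenergic-like octopamine receptor, gave 47.8, 47.4, 46.6, 49.4 and 180.7 in tubule and 111.5, 94.1, 110.4, 96.9 and 118.0 in whole fly. In 4 of 5 pairs the tubule array was under the whole fly array, and in pair 6 it was 1.53 times as high. The log2 fold change was -0.76 (95% interval -1.40 to -0.13, limma adjusted p = 0.047). Without pair 6 it was -1.11 (limma adjusted p = 0.0018), and the tubule mean fell from 74.4 to 47.8, under the limit. The call was lost in 12 of 15 alternative settings. The related Octbeta1R and Octbeta2R read 10.5 to 31.7 and 5.7 to 32.7 in tubule, with log2 fold changes of 0.42 and 0.26 that did not pass.

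Dop2R, the D2-like dopamine receptor, gave 51.0, 51.1, 39.7, 62.3 and 62.7 in tubule and 42.6, 33.8, 29.6, 32.1 and 31.6 in whole fly. Tubule was higher in 5 of 5 pairs, while tubule array 4 lay below whole fly array 2. Enrichment was 1.60 ± 0.354 (SD, n = 5) and the log2 fold change 0.64 (95% interval 0.18 to 1.11, limma adjusted p = 0.026). The call was lost without pair 3 (0.66, adjusted p = 0.060), pair 5 (0.57, 0.084) or pair 6 (0.56, 0.087), and with RpL32 held constant (0.31, 0.31).

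DopEcR, a receptor of dopamine and ecdysone, was lower in tubule. It gave 6.6, 9.7, 4.1, 3.0 and 3.0 in tubule and 21.1, 28.3, 36.3, 23.4 and 23.1 in whole fly, with no overlap, a log2 fold change of -2.46 (95% interval -3.35 to -1.56, limma adjusted p = 9.4e-04) that was -0.99 with 16 added to each signal (adjusted p = 3.2e-04). The D1-like receptor Dop1R1 was dim in both, 1.9 to 7.4 in tubule and 1.7 to 14.3 in whole fly.

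5-HT2A was the only serotonin receptor to pass, lower in tubule with 14.2, 9.4, 14.0, 19.5 and 5.1 against 40.5, 27.4, 35.9, 19.6 and 41.8. The highest tubule array and the lowest whole fly array all but touched, at 19.5 and 19.6. The log2 fold change was -1.49 (95% interval -2.46 to -0.52, limma adjusted p = 0.017), and after quantile normalization it was -0.63 (adjusted p = 0.22). The other 3, 5-HT1A, 5-HT1B and 5-HT7, had tubule means of 5.38 to 10.5 and log2 fold changes of 0.09, 0.06 and -0.45, with limma adjusted p-values of 0.62 to 0.94.

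Of 12 neuronal markers measured 8 were lower in tubule and none was higher, and 10 had a tubule mean under 10. The shares of all probe sets, for these and the other marker counts, were 36.3% lower and 16.8% higher. The defining markers elav and brp read 3.38 and 2.10 in tubule and only 8.02 and 4.26 in whole fly, dim in both, and Appl read 62.2 in tubule and 87.4 in whole fly and did not pass. The summed signal of the 12 neuronal markers was 93.3 to 145 in tubule and 411 to 567 in whole fly. That of the 33 receptors was 1582 to 2090 in tubule and 722 to 860 in whole fly. Such a sum is weighted to bright receptors, above all Dh31-R with means of 633 and 38.6. The median log2 fold change of the receptors was only 0.09, and 14 of the 33 were below 0. All 10 muscle markers and 8 of 12 neuronal markers were lower in tubule, as were DopEcR, 5-HT2A and Octbeta3R, and the part of nerve and muscle in those 3 differences was not tested. Of 11 tubule markers, 10 were higher and 1, Prip, was lower.

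Altogether 19 of the 33 receptors were under 50 in tubule and did not pass the test. Their tubule means ran from 2.14 to 33.2 and their whole fly means from 2.96 to 26.6, with adjusted p-values of 0.054 to 0.94. At such signals a difference was often not detectable with 5 pairs, and the intervals, such as -3.15 to 1.03 for TkR86C, are wide. Of the 49 receptors 16 were not analysed here for want of a probe set with a single annotated gene, and these include 7 gut and muscle peptide receptors, the ecdysis triggering hormone receptor ETHR, the octopamine receptor Oamb and the muscarinic receptor mAChR-A.

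**Figure D3:**
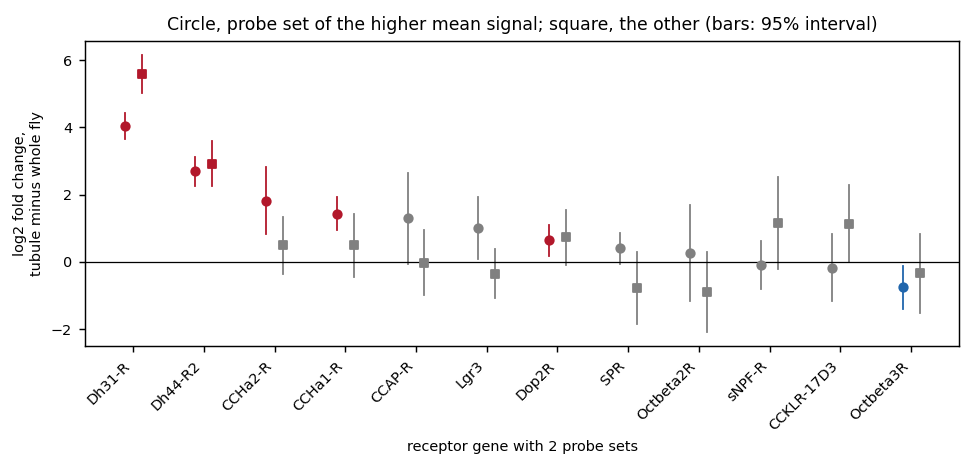
Log2 fold change, tubule minus whole fly, for the 12 receptors with 2 probe sets, as limma estimates from 5 pairs with 95% intervals. Circles are the probe set with the higher mean signal and squares the other, red for higher, blue for lower and grey for not passing the test. Both probe sets passed for Dh31-R and Dh44-R2.

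The second probe set gave a check on 12 receptors. The 2 probe sets had the same sign in 6. The signs differed for SPR, CCAP-R, Lgr3, Octbeta2R, sNPF-R and CCKLR-17D3, none of which passed by either. Of the 6 receptors that passed by the brighter probe set, Dh31-R and Dh44-R2 passed by both, and CCHa1-R, CCHa2-R, Dop2R and Octbeta3R did not pass by the dimmer one, although its sign was the same. The second probe set of Dop2R read 1.8 to 3.6 in tubule and 1.4 to 2.1 in whole fly, and that of Octbeta3R 1.3 to 4.1 and 0.7 to 7.3.

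Transcripts of peptide ligand genes, some of them for receptors not measured here, were more often lower than higher in tubule. Their tubule mean was under 10 for 11 of the 22 measured. Of 22 ligand genes measured 12 were lower and 1, AstCC, was higher, with a median log2 fold change of -1.42. That is 54.5% lower and 4.55% higher, beside 36.3% and 16.8% of all probe sets. Of the ligand genes measured for receptors that reached 50, none was higher. Dh31 had a mean of 13.8 in tubule and 31.1 in whole fly (log2 fold change -1.51, 95% interval -2.81 to -0.21, limma adjusted p = 0.052). Dh44 read 2.36 and 7.30 (limma adjusted p = 0.077) and Lk, which encodes leucokinin, 41.2 and 52.4 (0.32). CCHa2 was lower, at 45.3 against 137 (log2 fold change -1.55, limma adjusted p = 2.3e-04), whereas CCHa2-R was higher.

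The other ligands of receptors that reached 50 were CCHa1 at 16.2 in tubule and 19.4 in whole fly, Burs, a bursicon subunit, at 49.2 and 35.5, and Mip, which encodes the myoinhibitory peptides, at 4.74 and 3.46, none of which passed the test. SP, the sex peptide made in the male accessory gland, was lower, at 342 ± 244 in tubule and 1605 ± 404 in whole fly (SD, n = 5, log2 fold change -2.74, limma adjusted p = 0.0048). Without pair 6 the log2 fold change was -2.02 (adjusted p = 0.0041), and with pairs 4 and 6 alone -4.07 (0.0028). Its tubule signals of 510.1, 172.0, 356.3, 636.5 and 35.3 were lowest in array 6, where the summed signal of 11 accessory gland markers was also lowest, 110 against 658 to 4164 in the other 4. The SPR signal in that array was 59.6, within the range of the others. The part of accessory gland tissue in the SP and SPR signals was not tested. Ilp8 was also lower, at 72.9 and 139 (log2 fold change -0.92, limma adjusted p = 0.0011).

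**Figure D4:**
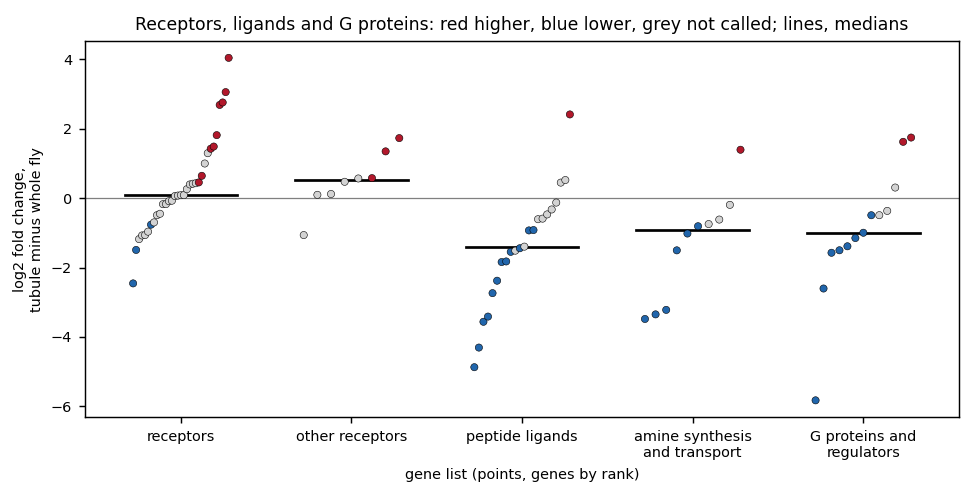
Log2 fold change, tubule minus whole fly, for each measured gene of 5 lists, ordered by rank within the list. Points are genes, red for higher, blue for lower and grey for not passing the test, and lines are list medians. The medians are 0.09 for the 33 receptors, 0.52 for other receptors, -1.42 for peptide ligands, -0.91 for amine synthesis and transport and -1.0 for G proteins and regulators.

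Genes of amine synthesis and transport gave 1 higher and 6 lower of 10 measured (all probe sets 16.8% higher and 36.3% lower), with a median log2 fold change of -0.91. The one that was higher was Tdc1, the tyrosine decarboxylase that makes tyramine outside the nervous system. It gave 128.3, 116.9, 112.9, 125.7 and 134.4 in tubule and 49.7, 43.7, 48.0, 46.5 and 46.7 in whole fly. The groups were tight and far apart, with an enrichment of 2.64 ± 0.192 (SD, n = 5) and a log2 fold change of 1.40 (95% interval 1.08 to 1.71, limma adjusted p = 7.0e-05). Tdc1 and the receptor TyrR were thus both higher in tubule. AANAT1, which acetylates amines, was lower, at 156 and 276 (log2 fold change -0.81, limma adjusted p = 0.0014).

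Of 13 G protein subunits and receptor regulators 2 were higher and 8 lower, or 15.4% and 61.5% beside 16.8% and 36.3% of all probe sets, with a median of -1.0. The share higher was close to that background. Galphaf, an alpha subunit gene, was higher at 101 ± 13.6 against 30.2 ± 5.97 (SD, n = 5, log2 fold change 1.75, limma adjusted p = 1.5e-04), and krz, the non-visual arrestin that uncouples receptors, was lower at 67.9 and 137 (-1.0, 6.3e-04). The receptor kinase gene Gprk2 was -0.49 (limma adjusted p = 0.024), a direction that turned to 0.07 after quantile normalization.

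A further 8 peptide and amine receptors outside the list of 49 were measured, of which 3 were higher and none was lower (all probe sets 16.8% and 36.3%), and the median was 0.52. TrissinR, the receptor of the cysteine-rich peptide trissin, gave 176.0, 256.3, 160.8, 232.0 and 205.0 in tubule and 62.4, 72.6, 57.9, 57.3 and 56.7 in whole fly. The groups did not overlap, and the log2 fold change was 1.73 (95% interval 1.42 to 2.05, limma adjusted p = 2.3e-05). Octalpha2R, an alpha-adrenergic-like octopamine receptor, was 0.58 (limma adjusted p = 0.017), and it no longer passed without pair 5 (0.51, adjusted p = 0.058) or with RpL32 held constant (0.24, 0.31). The third was the muscarinic receptor mAChR-C, at 1.35 (limma adjusted p = 0.013), chosen for naming after its value was seen.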

How the data were processed

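The authors made complementary RNA from total RNA by reverse and in vitro transcription and ran it on Affymetrix Drosophila genome arrays. They deposited MAS 5.0 signal intensities, made by background subtraction, robust summary of perfect match and mismatch probes and linear scaling. Pair 1 was discarded by them after quality control. The deposited intensities run from 0.1 to 14003, and no normalization was added. The number of arrays, 5 a group, limits the precision. The files name no genome build, so no coordinates are given.

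Control probe sets were left out, and limma 3.58.1 (R 4.3.3) was run on the log2 signals with lmFit, eBayes with a trend and the pair as a block, with Benjamini-Hochberg adjustment over 13966 probe sets. The fit was first tested on simulated data. The methods state that pairs share a culture. Deviations from the group means correlated within pairs at 0.0028, 0.085, -0.089, -0.0060 and 0.091 (6125 probe sets), so the signals themselves show no pairing. Symbols were updated through a RefSeq gene table.

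The receptors and the lists were chosen with earlier results of these data known. Signals of every array are given for receptors that reached 50 in tubule, were higher, or were lower. Of the other lists, up to 4 genes called with a tubule mean of at least 50 and the largest change are named, with the ligands of receptors that reached 50. Alternatives changed the treatment of dim signals, scaling, block, probe set, test and pairs used.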

Additional observations from a re-analysis of the deposited data

Results flagged for a closer look

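In 7 of 66 groups of 5 signals, 1 array stood far from the other 4 (the gap to the nearest array was over 0.71 of the group's range, which chance gives in about 1 of 20 groups). The tubule signal of Octbeta3R was 180.7 in array 6 and 46.6 to 49.4 in the others. That of 5-HT1B was 24.0 in array 2 and 5.6 to 8.3 in the others, and that of Oct-TyrR 6.9 in array 2 and 0.7 to 1.2 in the others. NPFR was 27.6 in tubule array 2 and 34.7 to 36.1 in the others, and 5-HT1A was 2.6 in tubule array 3 and 5.6 to 6.7 in the others. In whole fly, array 6 was low for CCHa1-R, 21.6 against 29.3 to 32.4, and high for Dh44-R1, 6.5 against 2.1 to 3.3. Leaving out the pair of the array in question changed for none of these 7 receptors whether it passed the test.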

How the results depend on the processing

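Of the 12 receptors that passed, Dh31-R, Dh44-R2 and Lkr passed in the same direction under every alternative tried for them. Lkr had no second probe set to try, and the second probe set was the only alternative under which CCHa1-R did not pass. Setting signals under 50 to 50 left 5 receptors, 5 higher and 0 lower, and testing only probe sets with a mean of at least 50 left 6. The other settings gave 8 to 17, among them 13 without the replicate block, 15 with 16 added to each signal, 14 with the methods' t-test after adjustment, 11 with it at an unadjusted p under 0.01, 8 with the second probe set and 10 to 12 when 1 pair was left out. Without the block Octbeta3R was lost (adjusted p = 0.071), Proc-R and AkhR were gained, and the other 11 kept their call. Pairs 4 and 6 had the lowest midgut marker sums among these same tubule arrays, 1175 and 3353. With pairs 4 and 6 alone 10 receptors passed, 8 higher and 2 lower, and 9 of these were among the 12. TkR99D (0.52, limma adjusted p = 0.13), Dop2R and Octbeta3R were lost and CCAP-R was gained, in a test with only 2 pairs. The count of receptors reaching 50 in tubule, 10, became 16 at a limit of 20, 4 at a limit of 100, 5 where each tubule array had to reach 50, 5 with the second probe set, and 8 to 10 without 1 pair. Ligand genes went from 13 calls to 5 both with signals under 50 set to 50 and with dim probe sets left out (11 to 13 without 1 pair), and amine synthesis and transport genes from 7 to 4 under both (6 to 7). Other receptors rose from 3 to 5 after quantile normalization (2 to 3 without 1 pair), and G proteins and regulators had 8 to 10 calls without 1 pair. Among receptors that reached 50 or passed, and called genes named by rule from the other lists, directions turned for rk, SPR and Gprk2. For rk this was with RpL32 held constant (-0.25) and without pair 6 (-0.040, with 0.21 as the highest value when 1 pair was left out). SPR turned by the second probe set (-0.78) and Gprk2 after quantile normalization (0.070). Also by the second probe set, CCKLR-17D3 (1.14), sNPF-R (1.15), CCAP-R (-0.02), Lgr3 (-0.35) and Octbeta2R (-0.90) turned. After quantile normalization sNPF-R, at -0.09 on the deposited signals, was called higher. Holding RpL32 constant shifted every log2 fold change by -0.34, so receptors just above 0, such as Dh44-R1 and 5-HT1A, fell below it. The cause of the other changes was not tested. A floor at 50 and a filter on dim probe sets do remove receptors such as NPFR, TyrR, DopEcR and 5-HT2A by construction. Low signal limits the 23 receptors under 50 in both tissues.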

Other observations

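Several ligand and signalling genes outside the naming rule showed large differences and were chosen after their values were seen. The ligand genes Capa, NPF, Ms and Proc, which encode the CAPA peptides, neuropeptide F, myosuppressin and proctolin, had tubule means of 5.04, 2.80, 6.52 and 1.94 and whole fly means of 49.6, 32.1, 97.1 and 37.9. All 4 were lower in tubule (limma adjusted p-values of 3.7e-05 to 5.8e-04), and no fold is given against tubule signals this near the floor of the scale. For NPF the receptor NPFR was called in the other direction.

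The amine genes ple, Ddc and Vmat, which encode tyrosine hydroxylase, dopa decarboxylase and the vesicular monoamine transporter, were lower in tubule by limma, with tubule means of 13.7, 5.38 and 20.02 and whole fly means of 133, 44.7 and 180 (adjusted p-values of 1.4e-04 to 3.6e-04). The alpha subunit genes were split. Galphas, whose product stimulates adenylate cyclase, was higher in tubule, at 43.0 and 15.9 (log2 fold change 1.62, limma adjusted p = 0.0052), whereas Galphao and Galphai were lower, at -1.50 and -1.57. Gbeta76C, the beta subunit of the photoreceptors, read 2.1 to 3.7 in tubule and 101 to 210 in whole fly (limma adjusted p = 9.1e-07).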
